A study of Bos taurus with 8 samples.

Results

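Inhibins and activins are dimers built from a small set of related subunits, and follistatin binds the activins and keeps them from their receptors. Granulosa cells, the somatic cells around the oocyte, are the main source of inhibin in the ovary, and the inhibin they release restrains secretion of follicle-stimulating hormone (FSH) by the pituitary. Anti-Müllerian hormone (AMH) is a relative of these ligands that granulosa cells of growing follicles make, and it signals through its own receptor, AMHR2. The 10 genes described here are the subunits INHA, INHBA and INHBB, the binding proteins FST and FSTL3, the hormone AMH, and the receptors and coreceptor AMHR2, ACVR2A, ACVR1B and TGFBR3. They were chosen by name, each had 1 probe set on the array whose annotation gave that symbol alone, and they make up 10 of the 18010 genes measured.

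The values come from primary bovine granulosa cells (Bos taurus) on 8 expression arrays, 4 from cultures treated with a non-esterified fatty acid (NEFA) mix and 4 from cultures treated with bovine serum albumin (BSA). Both groups grew without serum in alpha-MEM with FSH, insulin-like growth factor 1 and androstenedione, had the medium exchanged on day 2 and day 4, and were harvested on day 6. The sources used here do not give the breed, the age of the animals, the follicle size, or the make-up and dose of the fatty acid mix. Nor do they say what separates one replicate from another, so the p-values rest on a spread between arrays that may be technical. Levels are log2 expression values as mean ± SD, n = 4 in each group, and a difference is NEFA minus BSA, so that 1 unit is a doubling. The level of one probe set cannot be set against that of another, and with RNA from whole cultures, fewer cells of a type and less RNA per cell cannot be told apart.

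None of the 10 genes passed the threshold between NEFA and BSA cultures, an adjusted p of 0.05 in limma with Benjamini-Hochberg adjustment over all 24415 probe sets. Of all 18010 genes 2.35% passed, 0.999% as higher and 1.35% as lower with NEFA, so that a count of 0 of 10 lies near the background. At an unadjusted p under 0.05, AMHR2 and TGFBR3 were higher and FSTL3 was lower, 3 of 10, where 16.8% of all genes met that limit in either direction. The differences of the 10 genes ran from -0.245 for FSTL3 to 0.20 for TGFBR3, with 7 values above 0 and 3 below. Their median was 0.085, beside 0.005 over all genes. The groups did not overlap for 1 of the 10 genes, FSTL3, where 12.4% of all genes showed no overlap and 7.2% showed it with NEFA lower.

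**Figure D1:**
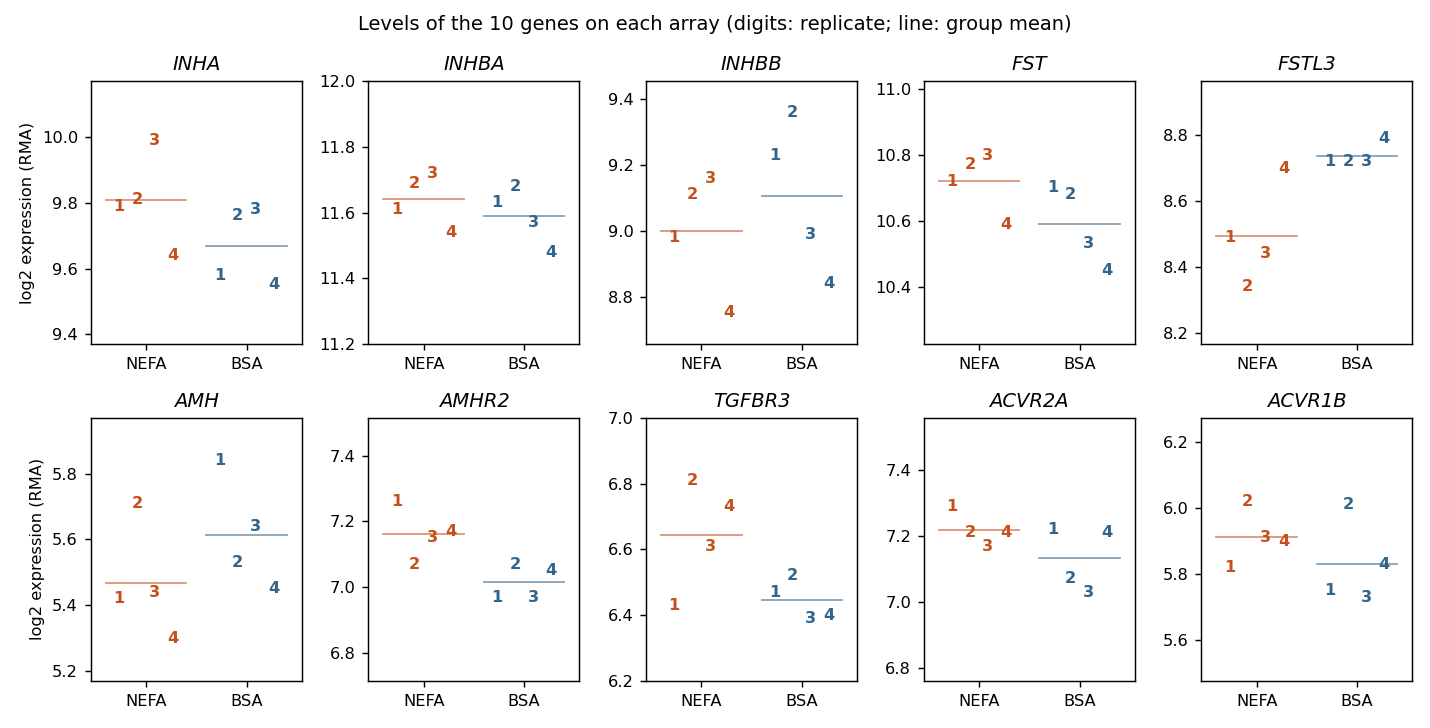
Log2 expression (vertical axes, each spanning 0.8 units) of the 10 genes on the NEFA arrays (left in each panel, orange) and the BSA arrays (right, blue). Digits are replicate numbers and lines are group means; the groups overlap in every panel other than that of FSTL3, where the lowest BSA value is 8.72 and the highest NEFA value is 8.70.

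INHA encodes the alpha subunit that makes a dimer an inhibin. It read 9.79, 9.81, 9.99 and 9.64 on NEFA arrays 1 to 4, against 9.58, 9.76, 9.78 and 9.55 on BSA arrays 1 to 4. The groups overlapped, with 3 NEFA arrays above every BSA array and NEFA 4 among the BSA values. The means were 9.81 ± 0.14 with NEFA and 9.67 ± 0.12 with BSA, a difference of 0.14 (SE 0.089; limma, adjusted p = 0.49) with a 95% interval of -0.06 to 0.34. It was 0.08 without NEFA 3 and 0.20 without NEFA 4.

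INHBA encodes the beta A subunit, which forms activin A as a homodimer and inhibin A together with the alpha subunit. Its probe set read 11.61, 11.69, 11.72 and 11.54 with NEFA, against 11.63, 11.68, 11.57 and 11.48 with BSA. The ranges lay almost on top of each other. The difference was 0.05 (SE 0.065; limma, adjusted p = 0.76), and its 95% interval, -0.10 to 0.20, corresponds to 0.934-fold to 1.15-fold of the BSA level. It was 0.01 without BSA 4 and 0.08 without NEFA 4. The level was high on a scale that ended at 13.49, where a bright probe set can understate a fold.

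INHBB, the beta B subunit of activin B and inhibin B, was the most variable of the 10 genes within groups. It read 8.98, 9.11, 9.16 and 8.75 with NEFA, against 9.23, 9.36, 8.99 and 8.84 with BSA. Both the highest and the next highest value were on BSA arrays, and the lowest was on a NEFA array. The difference was -0.105 (SE 0.13; limma, adjusted p = 0.75), smaller than the pooled within-group SD of 0.21, and it was -0.02 without BSA 2 and -0.19 without BSA 4.

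FST encodes follistatin, which binds activin with high affinity. It read 10.72, 10.77, 10.80 and 10.59 with NEFA, against 10.70, 10.68, 10.53 and 10.45 with BSA. As for INHA, 3 NEFA arrays lay above every BSA array and NEFA 4 lay among the BSA values. The difference was 0.13 (SE 0.077; limma, adjusted p = 0.45) with a 95% interval of -0.04 to 0.30. It was 0.08 without BSA 4 and 0.17 without NEFA 4.

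FSTL3 encodes follistatin-like 3, a second secreted protein that binds activins. It read 8.49, 8.34, 8.44 and 8.70 with NEFA, against 8.72, 8.72, 8.72 and 8.79 with BSA. Each NEFA value lay below each BSA value, NEFA 4 by only 0.02 units, and the NEFA arrays were spread more widely than the BSA arrays (SD 0.15 and 0.035). The means were 8.49 with NEFA and 8.74 with BSA, a difference of -0.245 (SE 0.078) or 0.844-fold, which did not pass (limma, adjusted p = 0.17). The 95% interval ran from -0.42 to -0.07. FSTL3 passed in 1 of 14 alternative analyses, the one with trend and robust eBayes settings (adjusted p = 0.035, in a range up to 0.31 without NEFA 3). The binding proteins thus had differences of opposite sign, 0.13 for FST and -0.245 for FSTL3.

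AMH read 5.42, 5.71, 5.44 and 5.30 with NEFA, against 5.84, 5.53, 5.64 and 5.45 with BSA. The groups overlapped, since NEFA 2 exceeded 3 of the BSA arrays. The difference was -0.1475 (SE 0.11; limma, adjusted p = 0.56) with a 95% interval of -0.40 to 0.10. It was -0.07 without BSA 1 and -0.23 without NEFA 2. The array medians, between 4.78 and 4.86, lay not far below this level, so that small folds of AMH may be understated.

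AMHR2, the type II receptor for AMH, read 7.26, 7.07, 7.15 and 7.17 with NEFA, against 6.97, 7.07, 6.97 and 7.05 with BSA. The groups met at 7.07, the value of NEFA 2 and BSA 2, and the other NEFA values lay above every BSA value. The difference was 0.1475 (SE 0.058; unadjusted p = 0.033 and adjusted p = 0.26, limma), with a 95% interval of 0.02 to 0.28.

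TGFBR3 encodes betaglycan, a coreceptor that lets inhibin hold activin receptors away from activin. It read 6.43, 6.81, 6.61 and 6.73 with NEFA, against 6.47, 6.52, 6.39 and 6.40 with BSA. NEFA arrays 2, 3 and 4 lay above every BSA array, and NEFA 1 lay within the BSA range. The difference of 0.20 (SE 0.085; unadjusted p = 0.045 and adjusted p = 0.30, limma) had a 95% interval of 0.01 to 0.39.

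The activin receptors had small differences. ACVR2A, a type II receptor that binds activin, read 7.29, 7.21, 7.17 and 7.21 with NEFA, against 7.22, 7.07, 7.03 and 7.21 with BSA. ACVR1B, the type I receptor that passes the activin signal on, read 5.82, 6.02, 5.91 and 5.90 with NEFA, against 5.75, 6.01, 5.73 and 5.83 with BSA. The groups overlapped for both, and the differences were 0.0875 (SE 0.062) for ACVR2A and 0.0825 (SE 0.076) for ACVR1B, with adjusted p = 0.54 and 0.65 in limma. Both were 0.05 without BSA 3, and ACVR1B was 0.14 without BSA 2.

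**Figure D2:**
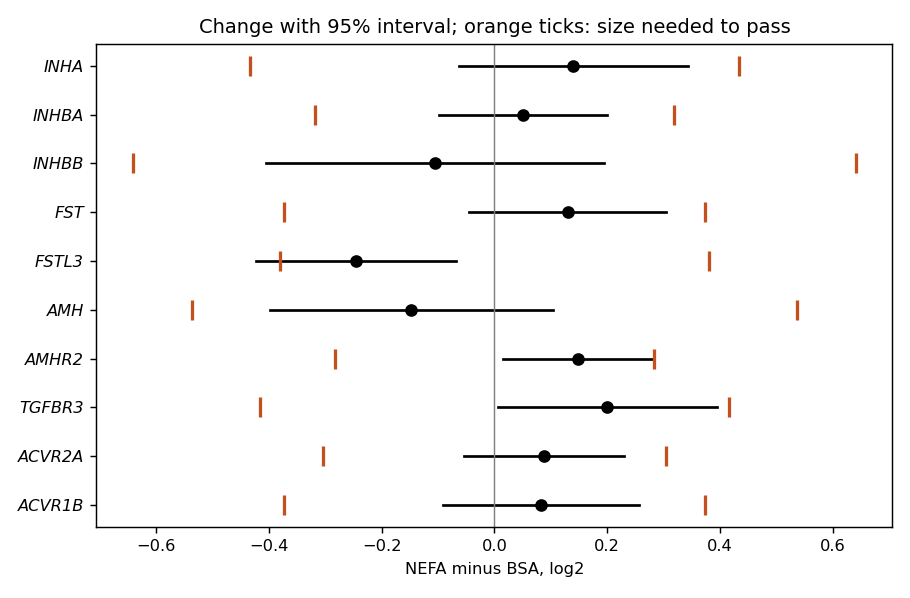
Difference of each gene (points, NEFA minus BSA, log2, horizontal axis) with its 95% limma interval (lines, not adjusted for the number of genes). Orange ticks mark the size that each gene would have needed to pass, from 0.28 for AMHR2 to 0.64 for INHBB; every point lies inside its ticks, and the intervals of FSTL3, AMHR2 and TGFBR3 leave out 0.

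The observed size needed to pass differed between the genes. With the standard error found for each, a difference of 0.28 for AMHR2, 0.32 for INHBA, 0.37 for FST, 0.43 for INHA, 0.54 for AMH and 0.64 for INHBB would have been needed to pass. The median absolute difference of the 423 genes that did pass was 0.435. An observed difference of that size would thus have missed the threshold for AMH and INHBB and passed for the other genes, for INHA only just. A true change of that size can be measured as smaller and miss. In simulated data, where the cutoff in p was stricter, 16 of 50 changes of 0.5 were recovered. The 95% intervals of the 10 genes, which are not adjusted for their number, reached no lower than 0.746-fold, for FSTL3, and no higher than 1.31-fold, for TGFBR3. The pooled within-group SD ran from 0.067 for AMHR2 to 0.21 for INHBB, and its median over all genes was 0.12.

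Within groups, 1 array number stood out for the ligand and follistatin genes. INHA, INHBA, INHBB, FST and AMH were each lowest of their group on NEFA 4 and again lowest on BSA 4. On NEFA 4 they lay between 0.25 and 0.10 below their group means, and on BSA 4 between 0.265 and 0.11 below. FSTL3 was highest of its group on both of these arrays, 0.21 above the mean on NEFA 4 and 0.05 above it on BSA 4. Over all 18010 genes, 8.06% were lowest and 6.65% highest on array 4 in both groups. Number 4 was singled out after the values of the 10 genes were seen, so these shares give no test of the pattern. The receptors AMHR2, ACVR2A, ACVR1B and TGFBR3 did not share the pattern. On other arrays the genes went different ways: on BSA 1, INHA lay 0.09 below its group mean and AMH 0.225 above, and on BSA 3, INHA lay 0.11 above and INHBB 0.115 below. Of the 8 granulosa markers measured, counted after this pattern was seen, FSHR and CYP19A1 were lowest on array 4 in both groups, CDH2 was highest in both and 5 were neither. The labels do not say whether arrays of the same number share a culture or an animal. Across all probe sets the deviations of the arrays numbered 4 correlated at 0.073, the highest value of any NEFA and BSA array. Arrays of unlike number correlated between -0.097 and 0.056. The cause of the shared low values was not tested. Without both arrays, a setting added after these values were seen, 0 of the 10 genes passed in limma, and each difference kept its sign, from -0.30 for FSTL3 to 0.16 for INHA, AMHR2 and TGFBR3.

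**Figure D3:**
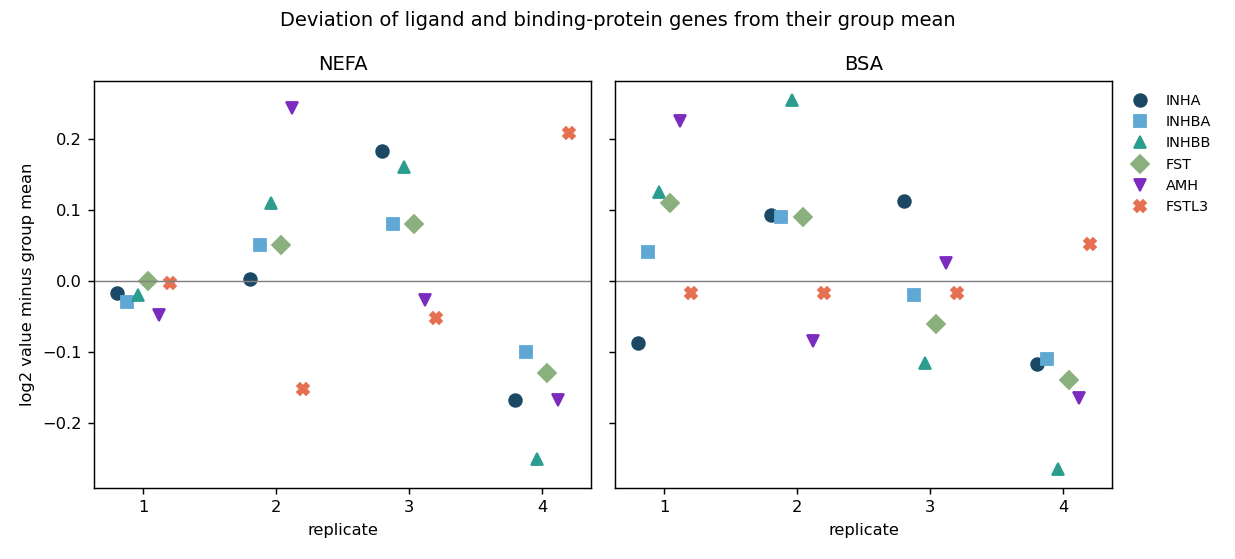
Deviation of each array from its own group mean (vertical axis, log2) for INHA, INHBA, INHBB, FST, AMH and FSTL3, by replicate number (horizontal axis), NEFA at left and BSA at right. Replicate 4 is the lowest of its group for all of them other than FSTL3, which is highest there.

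Differences between 2 genes on the same array were also taken, as a description with no test. Only their shift between groups carries meaning, since their size depends on the probes. FST minus INHBA was the steadiest, at -0.89, -0.92, -0.92 and -0.95 with NEFA, against -0.93, -1.0, -1.04 and -1.03 with BSA. Of these, 3 NEFA values lay above every BSA value, and the means differed by 0.08, with SDs of 0.024 in NEFA and 0.050 in BSA that were smaller than those of either gene alone. FSTL3 minus INHBA was -3.12, -3.35, -3.28 and -2.84 with NEFA, against -2.91, -2.96, -2.85 and -2.69 with BSA, a shift of -0.295. The NEFA 4 value lay within the BSA range, so the groups overlapped. INHA minus INHBB was 0.81, 0.70, 0.83 and 0.89 with NEFA, against 0.35, 0.40, 0.79 and 0.71 with BSA. Its shift was 0.245, with wide spread in BSA (SD 0.22) and overlap of the groups through NEFA 2. INHA minus INHBA shifted by 0.09 and INHBB minus INHBA by -0.155, and the groups overlapped in both.

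**Figure D4:**
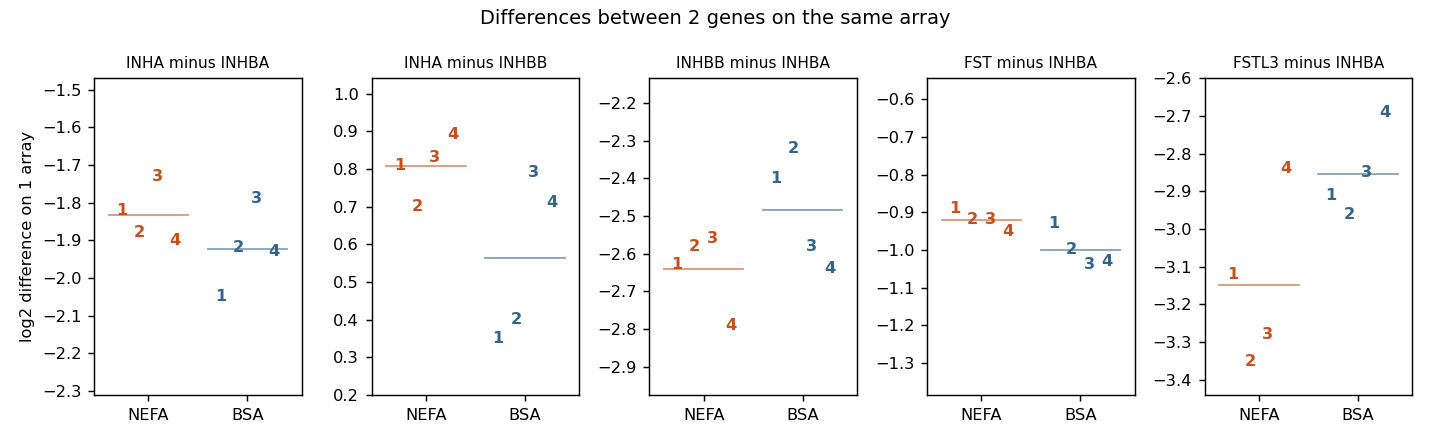
Log2 difference between 2 genes on the same array (vertical axes, each spanning 0.84 units) for 5 pairs, NEFA at left in orange and BSA at right in blue, with replicate numbers as points and group means as lines. The groups overlap in all 5 panels; FST minus INHBA is the tightest, and FSTL3 minus INHBA has the largest shift, -0.295.

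FSTL3 had the largest absolute difference of the 10 genes, so the genes most like it were sought. After centring each gene on its own mean, the 3 genes with the smallest root-mean-square difference from FSTL3 over the 8 arrays were DAB2 (0.037), an endocytic adaptor, GPRC5A (0.037), an orphan receptor, and the microRNA gene MIR29A (0.047). DAB2 read 9.14, 9.08, 9.13 and 9.35 with NEFA, against 9.43, 9.39, 9.34 and 9.43 with BSA. Like FSTL3 it was highest of the NEFA arrays on NEFA 4, a likeness for which the search itself selects. None of these 3 genes passed (limma, adjusted p = 0.15, 0.18 and 0.12 for DAB2, GPRC5A and MIR29A). MIR29A was dim, with means of 1.52 in NEFA and 1.76 in BSA.

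Other genes of the same pathways were followed in 6 lists, of which 47 of 50 genes were measured. Of these, 1 was higher, 2 were lower and 44 did not pass (limma), where 2.35% of all genes passed. At an unadjusted p under 0.05 (limma), 7 were higher and 6 lower, where 16.8% of all genes met that limit. The groups did not overlap for 11 of the 47, where 12.4% of all genes showed no overlap. The median difference of the 47 genes was 0.03, beside 0.005 over all genes. Of 10 other ligands, TGFB2, a transforming growth factor, rose by 0.535 (5.48, 5.51, 5.51 and 5.39 with NEFA, against 4.67, 4.97, 4.99 and 5.12 with BSA; limma, adjusted p = 0.028), 9 did not pass, and the median was 0.08. TGFB2 lost its call when any array other than BSA 1 or BSA 4 was left out, with adjusted p from 0.055 without NEFA 4 to 0.085 without NEFA 3 (limma). INHBE, another beta subunit of the family that was named after its value was seen, read 3.84, 4.03, 4.13 and 3.94 with NEFA, against 4.79, 4.38, 5.14 and 4.23 with BSA. Its groups did not overlap, as for 12.4% of all genes, and the difference of -0.65 (SE 0.18) did not pass (limma, adjusted p = 0.13).

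None of 7 activin and TGF-beta receptors passed (median 0.06, with 2 higher at an unadjusted p under 0.05 in limma). The smallest p was that of ACVR1C, a type I receptor, with a difference of 0.28 (limma, adjusted p = 0.12). ACVR1C was dim, with means of 2.46 in NEFA and 2.18 in BSA. None of 11 SMADs and regulators of that branch passed (median -0.03; at an unadjusted p under 0.05, 2 higher and 1 lower). The gene of smallest p was TGIF1, a SMAD corepressor, with a difference of 0.24 (limma, adjusted p = 0.073), which passed in 3 of its 14 alternatives. SMAD7, named after its value was seen, had nearly the same p and the opposite sign. It differed by -0.28 (limma, adjusted p = 0.074) and passed in 1 of its 14 alternatives. The groups overlapped for neither gene.

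AMH and the bone morphogenetic proteins (BMPs) share type I receptors and signal through SMAD1, SMAD5 and SMAD9. Of 8 genes of that branch, SMAD9 and the inhibitory SMAD6 fell, while 6 missed the threshold, which 2.35% of all genes passed. The median was -0.004. At an unadjusted p under 0.05 (limma), 1 of the 8 was higher and 3 were lower, where 16.8% of all genes met that limit. The groups did not overlap for 4 of the 8, where 12.4% of all genes showed no overlap. SMAD9 read 5.46, 5.44, 5.45 and 5.49 with NEFA, against 6.19, 6.12, 6.20 and 6.34 with BSA, so the groups lay far apart. It fell by 0.75 on the log2 scale (SE 0.058; limma, adjusted p = 7.07e-04), or to 0.594-fold. SMAD6 read 5.46, 5.48, 5.58 and 5.58 with NEFA, against 6.05, 6.10, 6.06 and 6.12 with BSA, and fell by 0.56 (SE 0.052; limma, adjusted p = 0.0019). Both passed in each of 14 alternatives. The receptors ACVR1, BMPR1A and BMPR2 differed by -0.01, 0.002 and 0.015, and SMAD1 by 0.025 (limma, adjusted p = 0.88); these and the next 2 genes were named after their values were seen. SMAD5 and the receptor BMPR1B differed by -0.195 and 0.16 with no overlap of the groups, and did not pass (limma, adjusted p = 0.11 and 0.18). ID1, ID2 and ID3, known targets of these SMADs, were added after these results were seen. ID1 fell by 0.455 and ID3 by 0.28 (limma, adjusted p = 0.025 and 0.042), and ID2 was at -0.235 (adjusted p = 0.068). The calls of ID1 and ID3 ended when any array other than BSA 3 was left out, with adjusted p up to 0.078 for ID1 and 0.12 for ID3, both without NEFA 3, and that of ID3 also after a further quantile normalization (adjusted p = 0.058).

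**Figure D5:**
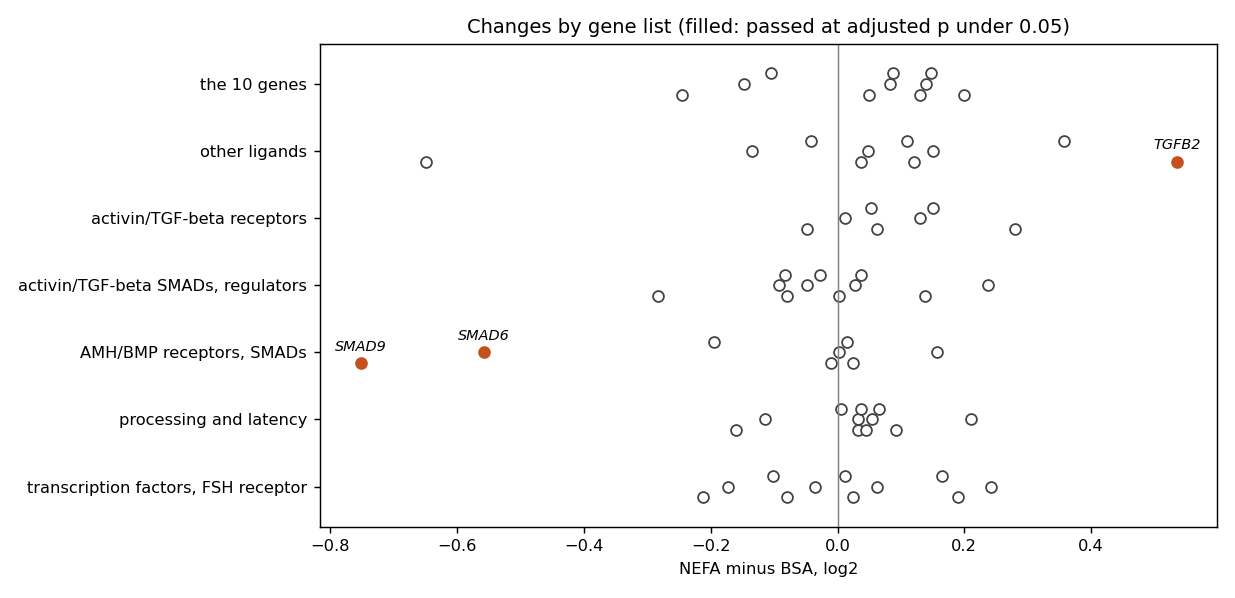
NEFA minus BSA differences (horizontal axis, log2) of the 10 genes and of the 6 further lists, 1 point a gene, spread vertically only for legibility. Filled points passed at an adjusted p under 0.05: TGFB2 (0.535) was higher, SMAD9 and SMAD6 were lower, and the 10 genes all lie between -0.245 and 0.20.

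None of 11 genes for ligand processing and latency passed (median 0.04; at an unadjusted p under 0.05, 1 higher and 1 lower). FURIN, a protease that cleaves precursors of this family and was named after its value was seen, differed by 0.03. The smallest p was that of FSTL1, a follistatin-like glycoprotein, with a difference of 0.21 (limma, adjusted p = 0.10). FSTL1 passed in 2 of its 14 alternatives. Of 11 genes for transcription factors and FSH effectors known to act on inhibin, follistatin or AMH promoters, none passed (median 0.01; at an unadjusted p under 0.05, 1 higher and 2 lower). GATA4 had the smallest p and a difference of -0.17 (limma, adjusted p = 0.18), with no overlap of the groups, as for 12.4% of all genes. FOXL2, which in mice is known to act on the follistatin gene and was named after its value was seen, differed by -0.035.

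The label of the cells could not be settled from marker levels, since probe sets cannot be set against each other. On their own scales, the probe sets of the 8 granulosa markers read from 4.83 to 10.93, of 5 theca markers from 3.27 to 7.98, of 4 luteal markers from 2.72 to 12.44, and of 5 smooth muscle and fibroblast markers from 4.59 to 8.61. Those of 6 leukocyte markers read from 2.87 to 4.69, of 5 endothelial markers from 2.85 to 5.09 and of 5 oocyte markers from 1.79 to 3.44.

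Between the groups, the granulosa markers went both ways, with a median of -0.03 and 5 of 8 values below 0. GATM, an amidinotransferase, rose by 0.36 and 7 did not pass (limma; 2 higher and 2 lower at unadjusted p under 0.05), among them HSD17B1 at -0.745 and CYP19A1 at 0.505, both named after their values were seen. The summed granulosa level (log2 of the summed linear values) ran from 11.92 to 12.0 in NEFA and from 11.89 to 11.93 in BSA. CDH2 (-0.025, named after its value was seen) had the largest share of this sum. Of all genes, 2.35% passed and 16.8% had an unadjusted p under 0.05 in limma.

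The theca, luteal and oocyte sums lay apart in the groups, although no single marker in these lists passed in limma. Of all genes taken singly, 12.4% showed no overlap and 16.8% had an unadjusted p under 0.05 in limma. The theca sum ran from 9.07 to 9.25 in NEFA and from 8.89 to 9.07 in BSA, just without overlap, with 5 of 5 values above 0 and 4 higher at an unadjusted p under 0.05. The luteal sum, in which HSD3B1 (-0.13, named after its value was seen) had the largest share, ran from 12.48 to 12.55 in NEFA and from 12.64 to 12.69 in BSA, with 2 lower at an unadjusted p under 0.05. The oocyte sum ran from 5.20 to 5.37 in NEFA and from 5.05 to 5.19 in BSA, with 1 higher at that limit. Its probe sets were dim, with levels from 1.79 to 3.44 beside a median of 5.36 over all genes.

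The sums of the remaining markers overlapped. Those of smooth muscle and fibroblasts ran from 9.31 to 9.57 in NEFA and from 9.47 to 9.55 in BSA, with the largest share from PDGFRA. Of these 5 genes, 3 were higher and 1 was lower at an unadjusted p under 0.05 (limma), where 16.8% of all genes met that limit. The groups did not overlap for 2 of the 5, where 12.4% of all genes showed no overlap. There PDGFRA fell by 0.30 while the other 4 genes had values above 0, MYH11 (0.42, adjusted p = 0.056), TAGLN (0.37), DES (0.34) and COL1A1 (0.035), which did not pass in limma and were named after their values were seen; the median was 0.34. The leukocyte sum ran from 6.54 to 6.79 in NEFA and from 6.56 to 6.65 in BSA. The endothelial sum ran from 6.03 to 6.20 in NEFA and from 6.17 to 6.37 in BSA, and there VWF fell by 0.35 and 4 did not pass. In the lists with no call, the genes of smallest p were PTCH1 (theca), CSF1R (leukocytes), ZP3 (oocyte) and OXT (luteal cells). Their differences were 0.22, 0.13, 0.235 and -0.28, with adjusted p = 0.15, 0.29, 0.21 and 0.13 in limma.

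PDGFRA lost its call whichever array was left out, and GATM and VWF lost theirs in each case other than NEFA 4, with adjusted p up to 0.12 for GATM and 0.11 for PDGFRA and VWF (limma). GATM also lost it after median centring (adjusted p = 0.084). The part of other cells in the differences of the 10 genes was not tested.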

How the data were processed

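The authors deposited log2 values computed by RMA, according to the submitters' processing notes. This method subtracts background, gives the arrays like distributions and condenses each probe set to 1 value, so a change shared by all transcripts cannot be seen. The sources used here do not give its software, version or genome build. Array medians ran from 4.78 to 4.86 and no arrays held identical values. Arrays have no read depth, and their number limits precision.

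Probe sets were named from the supplied platform annotation, with 17996 symbols updated by gene ID (RefSeq, ARS-UCD2.0). Of 24415 probe sets, 18457 had 1 symbol, 688 several and 5270 none, and those with 1 were named. The brightest probe set stood for each of 18010 genes. NEFA and BSA were compared with limma 3.58.1 in R 4.3.3 (lmFit, eBayes) and Benjamini-Hochberg adjustment over all probe sets. The test was tried on simulated data with 24415 probe sets and recovered 6 of 50 changes of 0.25, 16 of 50 at 0.5, 43 of 50 at 1 and 49 of 50 at 2, with 4 false among 118 calls.

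Besides the 10 genes, the text names, from each further list, up to 5 genes past the threshold or the one with the smallest p, and the 3 genes most like the member with the largest difference; exceptions are marked. Members and lists were chosen with earlier results of these data known. The alternatives were a replicate block, further quantile normalization, median centring, leaving out the dimmest 33.3% of probe sets, trend and robust eBayes, array weights, averaging a gene's probe sets and leaving out each array. Equal replicate numbers were not treated as pairs in the main fit. Deviations of same-numbered arrays correlated between -0.014 and 0.073, and those of unlike number between -0.097 and 0.056. These values do not settle whether equal numbers mark pairs.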

Additional observations from a re-analysis of the deposited data

Results flagged for a closer look

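In 78 groups of 4 arrays, 1 array of 3 groups stood apart from the others by Dixon's test at its 95% critical value, and chance gives about 1 in 20. FSTL3 in BSA was highest on BSA 4, at 8.79, while the other BSA arrays all read 8.72, in values rounded to 2 decimals. ID2 in BSA was also highest on BSA 4, at 9.37, with the next at 9.26. GATM in NEFA was lowest on NEFA 4, at 9.27, with the next at 9.48.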

How the results depend on the processing

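The 10 genes kept their sign in the 14 alternatives other than the replicate block. In some of these the sign could not change, since the differences of the 10 genes stayed as they were. These were leaving out dim probe sets, trend and robust eBayes, and averaging probe sets, of which each of the 10 genes had 1. Of the 140 values from the 14 alternatives 1 passed, that of FSTL3 with trend and robust eBayes, where the number of the 10 genes called was 1. With the replicate block no member passed (lowest adjusted p = 0.21, limma, for FSTL3). The block gave 77 called genes (45 higher, 32 lower) and ended the calls of TGFB2, GATM, VWF, PDGFRA, ID1 and ID3, while SMAD9 and SMAD6 passed (adjusted p = 0.022 and 0.041). Leaving out the dimmest 33.3% of probe sets gave 790 genes, of which 7 of the pathway lists, and trend and robust eBayes gave 1097, of which 8 of the pathway lists, against 423 and 3. Leaving out 1 array gave 164 to 260 genes, and leaving out both arrays numbered 4 gave 110. Fewer arrays leave fewer degrees of freedom; the cause of the other shifts was not tested. Called genes were higher in 42.6% of cases, in 29.6% after median centring, in 58.4% with the block and in 56.4% without both arrays numbered 4. Centring moved the median of all genes from 0.005 to -0.03 and that of the 10 genes from 0.085 to 0.05. Dim probe sets understate folds, and with 4 arrays a group differences of 0.25 were rarely recovered in simulated data. The simulated data gave fewer calls (118) than the deposited data, so their cutoff in unadjusted p was stricter.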
